A study of Mus musculus with 9 samples.

Results

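The genes described here are 43 mouse genes known to be imprinted, taken by symbol from a table of 54532 Ensembl genes counted in 9 RNA-seq libraries of cultured stem cells. They lie in 19 imprinted domains on 9 chromosomes, 17 of them on chromosome 7, and 36 code for proteins. By textbook assignment 23 are expressed from the paternal copy, 10 from the maternal copy, and 10 from one copy in some tissues or transcripts only.

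The study held 3 libraries of each of 3 cell types, all of the strain Sv129 x GOF/GFP F1. AFSC were derived from zona-free blastocysts on fibronectin in Activin A (Act A) and bFGF, added to a DMEM/F12, N2 and B27 base, and were at passage 15 to 20. ALSC and ABSC were both made by passaging AFSC more than 5 times in another medium. ABSC, labelled as trophoblast stem cell (TSC) like, were kept in Act A and BMP4 and were at passage 25 to 30. ALSC were at passage 20 to 25, and the labels give Act A with leukemia inhibitory factor under a name that differs by 1 letter from the ALSC medium, so that recipe is read here as the ALSC medium. Cell type and passage cannot be told apart, and the labels name a separate RNA kit for ALSC. The labels do not say whether the libraries of a group came from separate cultures or lines, so p-values measure only the spread between these libraries.

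Imprinted genes are expressed mainly from the copy inherited from one parent. The choice is set by DNA methylation laid down in the germ line at an imprinting control region, and in the early embryo that methylation is kept by ZFP57, which recruits TRIM28, and by the maintenance methyltransferase DNMT1. Many imprinted genes act on fetal and placental growth. Gene counts add both parental copies, so the parental origin of the RNA was not measured.

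Libraries held 18978651 to 21578737 counts in Ensembl genes, and the imprinted genes took 0.272% to 0.351% of them. All 6 epiblast markers reached 1 CPM (counts per 1000000 counts of a library) or more in every library, and their sum lay at 1523 to 1768 CPM. Pou5f1 holds most of that sum, at 1179 to 1261 CPM in ABSC. Of the 6, Pou5f1 and Nanog were called higher in ABSC than in AFSC, and Fgf5, Sox2, Pou3f1 and Otx2 lower. The calls of Pou5f1, Nanog, Otx2 and Sox2 were lost in some fits that each left out 1 library (edgeR adjusted p up to 0.193, 0.141, 0.0554 and 0.0525). Fgf5 fell the most, from 184 to 193 CPM in AFSC to 13.5 to 18.3 CPM in ABSC (log2 -3.53, edgeR adjusted p = 1.25e-06). The 7 TSC markers summed to 402 to 479.9 CPM in ABSC, against 189 to 258 CPM in AFSC and 159.5 to 296 CPM in ALSC. Hand1 reached 188 to 244 CPM in ABSC and Cdx2 0.835 to 6.43 CPM, both called higher there. Hand1 made up most of the excess of the ABSC sum, with means of 0.240 CPM in AFSC and 2.08 CPM in ALSC. Tfap2c was called higher in ALSC than in AFSC (log2 2.30, edgeR adjusted p = 0.0192), but not in some fits without 1 library (up to 0.0841). Against ALSC, Tfap2c was lower in ABSC but not called (-1.12, edgeR adjusted p = 0.143). It was called with the library number as a block (-1.24, 0.0247) and without the libraries numbered 1 (-0.80, 9.05e-06). Eomes had 37.4 to 165 CPM and Esrrb 87.5 to 116 CPM over the 9 libraries, and neither was called in any comparison. The Eomes range followed the library number, at 78.8, 53.2 and 37.4 CPM in AFSC 1, ALSC 1 and ABSC 1 and 137 to 165 CPM otherwise. Without the libraries numbered 1, Eomes was called higher in ALSC than in AFSC (0.19, edgeR adjusted p = 0.00892). Gata3 was at 0.393 to 1.10 CPM in ABSC and Elf5, a defining marker, was near 0 there (0 to 0.0506 CPM). With that marker near 0, ABSC are called only by that name below. The part of these marker changes in the differences of the imprinted genes was not tested.

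The largest differences among the imprinted genes concerned Nnat and Plagl1. Nnat was 4.41-fold lower in ABSC than in AFSC, and Plagl1 was 3.34-fold higher. The maternally expressed RNAs Meg3, Rian and Mirg were lowest in ABSC, as were Ndn and Magel2 of the Snrpn domain. Igf2r was lowest in AFSC and highest in ABSC. With edgeR's quasi-likelihood test, adjusted over 16178 genes at a threshold of 0.05, 17 of the 40 members tested were called in at least 1 of the 3 comparisons. Unless another fit is named, called and not called refer to this fit.

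In ABSC against AFSC 9 of 40 members were called (22.5%), 3 higher and 6 lower, where 7.98% of all genes tested were called (3.98% higher, the rest of them lower). In ALSC against AFSC 7 were called (17.5%), 4 higher and 3 lower, beside 7.04% of all genes (3.54% higher and 3.50% lower). In ABSC against ALSC 11 were called (27.5%), 5 higher and 6 lower, beside 11.0% of all genes (5.41% higher and 5.56% lower). The 3 comparisons share their libraries, so a gene high or low in 1 cell type enters 2 of them. Scaling by library size alone gave 2 higher and 6 lower in ABSC against AFSC, 7 higher and 2 lower in ALSC against AFSC, and 1 higher and 8 lower in ABSC against ALSC.

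The library numbers of the labels mattered for these counts. Same-numbered libraries deviated together from their group means, and with the number as a replicate block 15, 15 and 17 members were called in the same order (19.4%, 22.2% and 28.5% of all genes). Without the 3 libraries numbered 1, the counts were 22, 19 and 21 (28.5%, 25.4% and 32.2% of all genes). That fit holds only libraries 2 and 3 of each group, here and for each gene below. Its small adjusted p-values therefore rest on the spread between few libraries. The members' shares were above those of all genes in each of these fits, and no test of that excess was made. In bulk libraries, fewer expressing cells and less RNA per cell cannot be told apart.

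**Figure D1:**
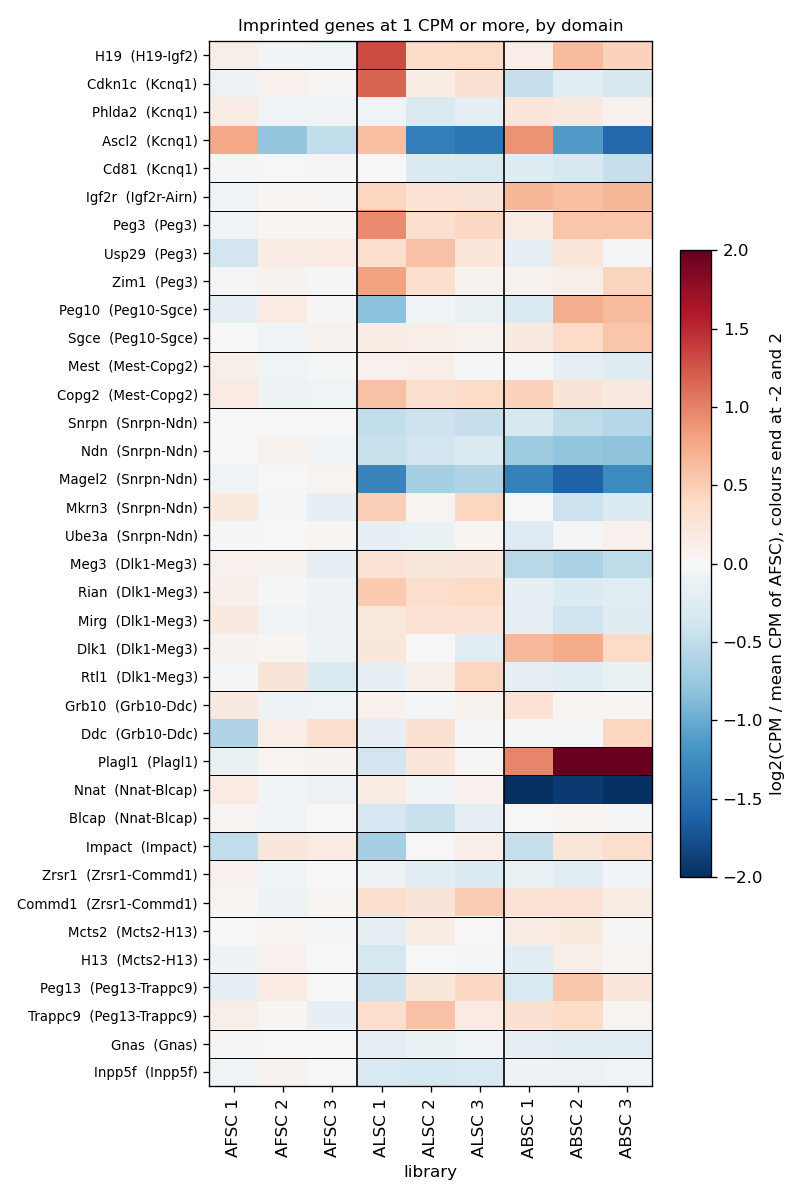
Heat map of the 37 imprinted genes with a mean of 1 CPM or more. Each row is a gene with its domain, each column a library, and colour is the log2 of its CPM over the mean CPM of the 3 AFSC libraries. Nnat is lower and Plagl1 higher in all 3 ABSC libraries, while Ascl2 is highest in library 1 of each group.

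**Figure D2:**
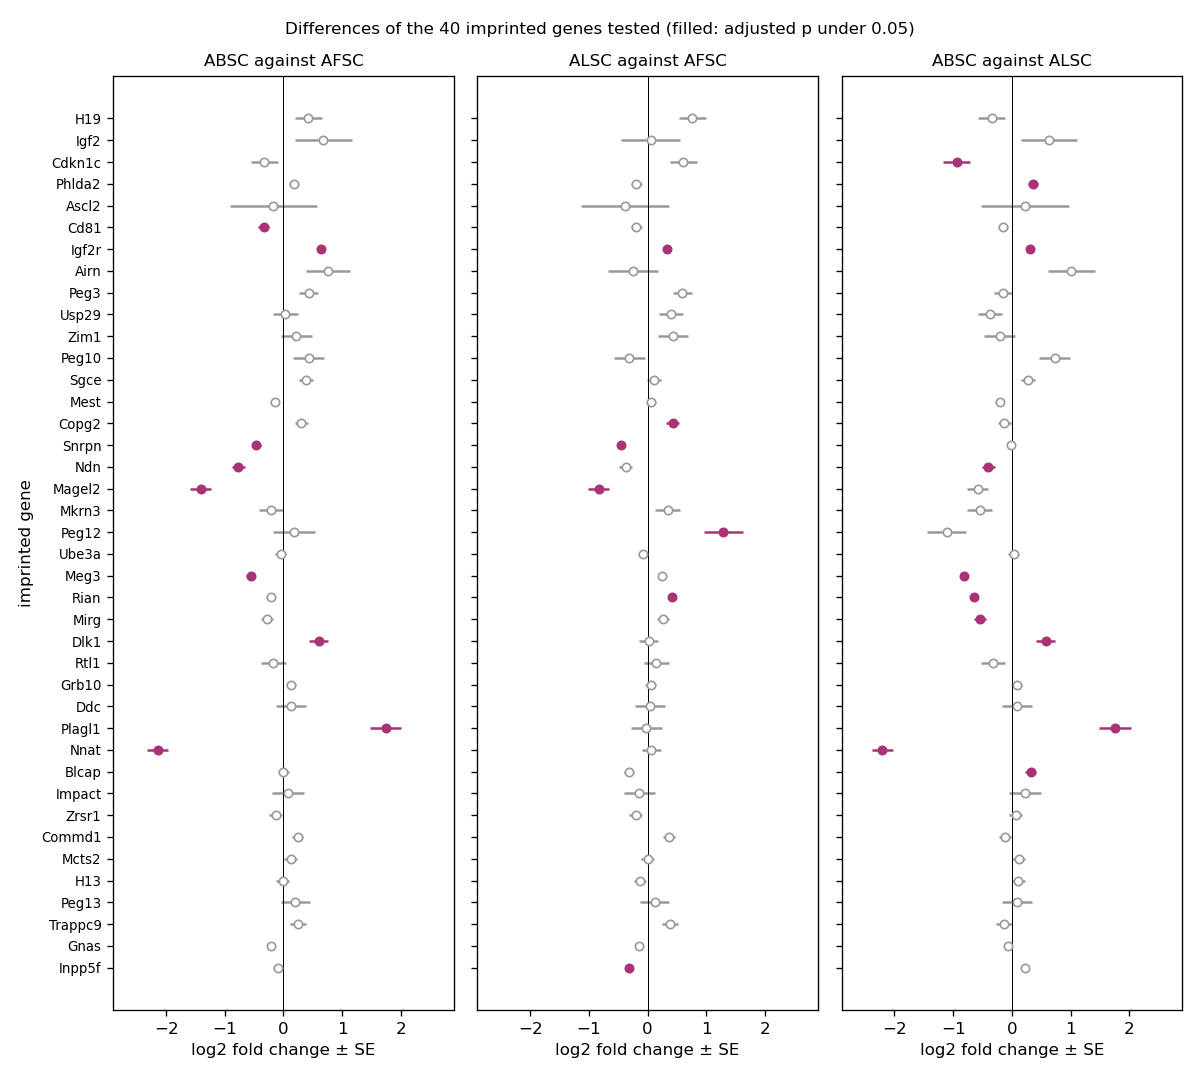
Log2 fold change with its standard error (horizontal axis) for each of the 40 imprinted genes tested (vertical axis), in the 3 comparisons. Filled points were called by edgeR, 9 in ABSC against AFSC, 7 in ALSC against AFSC and 11 in ABSC against ALSC.

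ZFP57 binds the methylated hexamer TGCCGC at imprinting control regions. Promoter windows from RefSeq (GRCm38.p6, 250 bases before to 50 bases after a start) were searched for it on both strands. Of 52 windows of 35 members, 13 held a match (25%), against 3813 of 32851 windows of all genes (11.6%). The member windows had a median of 14.5 CpG and all windows a median of 7. The windows of the 4 called members with a match and the largest differences are shown because Nnat, Plagl1, Meg3 and Snrpn lead the results below. They run from 5′ to 3′ on the gene's strand, and the capitals mark the hexamer, which lay on the other strand in each and so reads GCGGCA. Counting from the start, its first base was at position 28 in Nnat, -90 in Plagl1, -190 in Meg3 and -2 in Snrpn. A match is a description of these letters, and neither binding nor methylation was measured. The windows are chr2:157559828-157560127 (plus strand) for Nnat, chr10:13090582-13090881 (plus) for Plagl1, chr12:109540746-109541045 (plus) for Meg3 and chr7:60005150-60005449 (minus) for Snrpn.
Nnat: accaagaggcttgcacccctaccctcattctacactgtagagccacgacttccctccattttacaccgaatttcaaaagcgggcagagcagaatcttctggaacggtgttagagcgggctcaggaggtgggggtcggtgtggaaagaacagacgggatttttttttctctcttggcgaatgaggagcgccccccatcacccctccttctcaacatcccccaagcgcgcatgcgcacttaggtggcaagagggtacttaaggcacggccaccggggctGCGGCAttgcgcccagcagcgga
Plagl1: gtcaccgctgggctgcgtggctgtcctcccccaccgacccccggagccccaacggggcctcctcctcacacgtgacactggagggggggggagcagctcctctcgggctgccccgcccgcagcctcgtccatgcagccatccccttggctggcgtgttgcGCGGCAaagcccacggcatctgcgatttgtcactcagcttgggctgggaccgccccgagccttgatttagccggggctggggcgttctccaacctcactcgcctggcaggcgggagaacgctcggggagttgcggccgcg
Meg3: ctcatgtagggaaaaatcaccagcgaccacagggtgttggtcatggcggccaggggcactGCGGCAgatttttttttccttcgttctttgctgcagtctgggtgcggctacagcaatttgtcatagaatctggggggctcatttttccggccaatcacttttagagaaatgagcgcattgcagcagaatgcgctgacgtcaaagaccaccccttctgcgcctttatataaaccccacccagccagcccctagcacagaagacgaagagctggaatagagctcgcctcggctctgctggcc
Snrpn: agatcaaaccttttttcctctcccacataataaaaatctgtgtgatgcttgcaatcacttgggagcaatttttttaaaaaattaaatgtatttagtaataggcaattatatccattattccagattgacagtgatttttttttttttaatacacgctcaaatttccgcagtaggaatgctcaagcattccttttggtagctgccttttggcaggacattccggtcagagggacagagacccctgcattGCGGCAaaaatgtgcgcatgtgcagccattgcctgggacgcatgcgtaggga

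Nnat (neuronatin) encodes a small membrane proteolipid and sits inside an intron of Blcap, at chr2:157560078-157562522. Nnat stood at 22.2, 18.9 and 18.1 CPM in AFSC 1 to 3, at 21.8, 19.004 and 20.9 CPM in ALSC 1 to 3, and at 3.24, 5.23 and 4.91 CPM in ABSC 1 to 3. Every ABSC library was below every other library, while AFSC and ALSC overlapped. It fell in ABSC against AFSC by 2.14 on the log2 scale (SE 0.18, edgeR adjusted p = 8.34e-05) and against ALSC by 2.21 (SE 0.18, adjusted p = 4.75e-05). Its host Blcap, imprinted in brain, had 32.99 to 35.5 CPM in ABSC, 32.5 to 35.4 CPM in AFSC and 25.1 to 29.8 CPM in ALSC. Blcap rose in ABSC against ALSC (log2 0.32, SE 0.09, edgeR adjusted p = 0.0445), a call that held in 1 of 9 fits that each left out 1 library (ALSC 3) and was otherwise at adjusted p up to 0.156. It was also lost with scaling by library size alone. The block fit had Blcap also lower in ALSC than in AFSC (-0.32, edgeR adjusted p = 0.0104, against 0.0596 without the block). The pair shares no exonic bases.

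Plagl1 (Zac1) encodes a zinc finger transcription factor that regulates other imprinted genes, at chr10:13060504-13131694. Plagl1 had 8.50, 9.73 and 9.82 CPM in AFSC 1 to 3, 7.26, 11.02 and 9.53 CPM in ALSC 1 to 3, and 18.3, 39.1 and 36.7 CPM in ABSC 1 to 3. All ABSC libraries lay above the others, and ABSC 1 lay well below ABSC 2 and ABSC 3. Plagl1 rose in ABSC against AFSC (log2 1.74, SE 0.27, edgeR adjusted p = 0.00312) and against ALSC (1.76, SE 0.27, adjusted p = 0.00266). Cdx2, a TSC marker, also was low in ABSC 1, at 0.835 CPM beside 6.43 and 6.07 CPM in ABSC 2 and 3, whereas Hand1 was at 244, 208 and 188 CPM. Their part in the Plagl1 difference was not tested.

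The Dlk1-Meg3 domain on chromosome 12 pairs maternally expressed noncoding RNAs with paternally expressed coding genes. Meg3 (chr12:109541001-109571726), the RNA next to the control region, had 574, 566 and 482 CPM in AFSC 1 to 3, 664, 631 and 638 CPM in ALSC 1 to 3, and 370.0, 348 and 382 CPM in ABSC 1 to 3. Rian, which hosts small nucleolar RNAs, had 506, 464 and 440.0 CPM in AFSC, 672, 602 and 617 CPM in ALSC, and 418, 387 and 404 CPM in ABSC. Mirg, a microRNA host, had 41.9, 35.3 and 34.1 CPM in AFSC, 43.05, 45.5 and 45.1 CPM in ALSC, and 32.5, 28.03 and 31.4 CPM in ABSC. For all 3 RNAs the groups did not overlap, with ALSC highest and ABSC lowest.

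Meg3 fell in ABSC against ALSC by 0.81 on the log2 scale (SE 0.07, edgeR adjusted p = 9.52e-05) and against AFSC by 0.56 (SE 0.07, adjusted p = 0.00109). Rian fell in ABSC against ALSC by 0.65 (SE 0.07, edgeR adjusted p = 0.000289) and rose in ALSC against AFSC (0.42, SE 0.07, adjusted p = 0.00566). Mirg fell in ABSC against ALSC by 0.54 (SE 0.10, edgeR adjusted p = 0.00677). The other 4 differences among these 3 RNAs were not called without the replicate block, but were with it and without the libraries numbered 1. With the block, edgeR gave an adjusted p of 0.00692 for Meg3 (log2 0.25) and 0.0271 for Mirg (0.27) in ALSC against AFSC. It gave 0.00329 for Rian (-0.22) and 0.0296 for Mirg (-0.27) in ABSC against AFSC.

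On the paternal side, Dlk1, which encodes a transmembrane ligand of the Notch ligand family, moved the other way in ABSC. Dlk1 had 6.96, 6.80 and 6.20 CPM in AFSC 1 to 3, 7.76, 6.63 and 5.76 CPM in ALSC 1 to 3, and 10.4, 11.1 and 8.70 CPM in ABSC 1 to 3. All 3 ABSC libraries were above the rest. Dlk1 rose against AFSC (log2 0.60, SE 0.16, edgeR adjusted p = 0.0466) and against ALSC (0.58, SE 0.16, adjusted p = 0.0424). These calls were fragile, since they held in 2 and 1 of 9 fits that each left out 1 library (ALSC 1 and ALSC 3 for the first, ALSC 1 for the second), with an adjusted p of up to 0.187 and 0.159 otherwise. Both were also lost when libraries were scaled by library size alone. Rtl1, a retrotransposon-derived placental gene transcribed antisense to microRNAs, had 3.29 to 5.45 CPM over the 9 libraries and was not called.

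RefSeq places 14 microRNA hairpins with 26 mature microRNAs within Mirg, 3 hairpins within Rian and 1 each within Meg3 and H19. Mature microRNAs were not counted in these libraries. Of the 26 in Mirg, 2 share a seed (bases 2 to 8, in capitals below), and the 2 of H19 do not. They are shown because Mirg and H19 are their host RNAs.
mmu-miR-453: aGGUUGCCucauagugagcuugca
mmu-miR-496a-5p: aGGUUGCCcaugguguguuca
mmu-miR-675-5p: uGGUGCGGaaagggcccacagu
mmu-miR-675-3p: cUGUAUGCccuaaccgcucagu

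**Figure D3:**
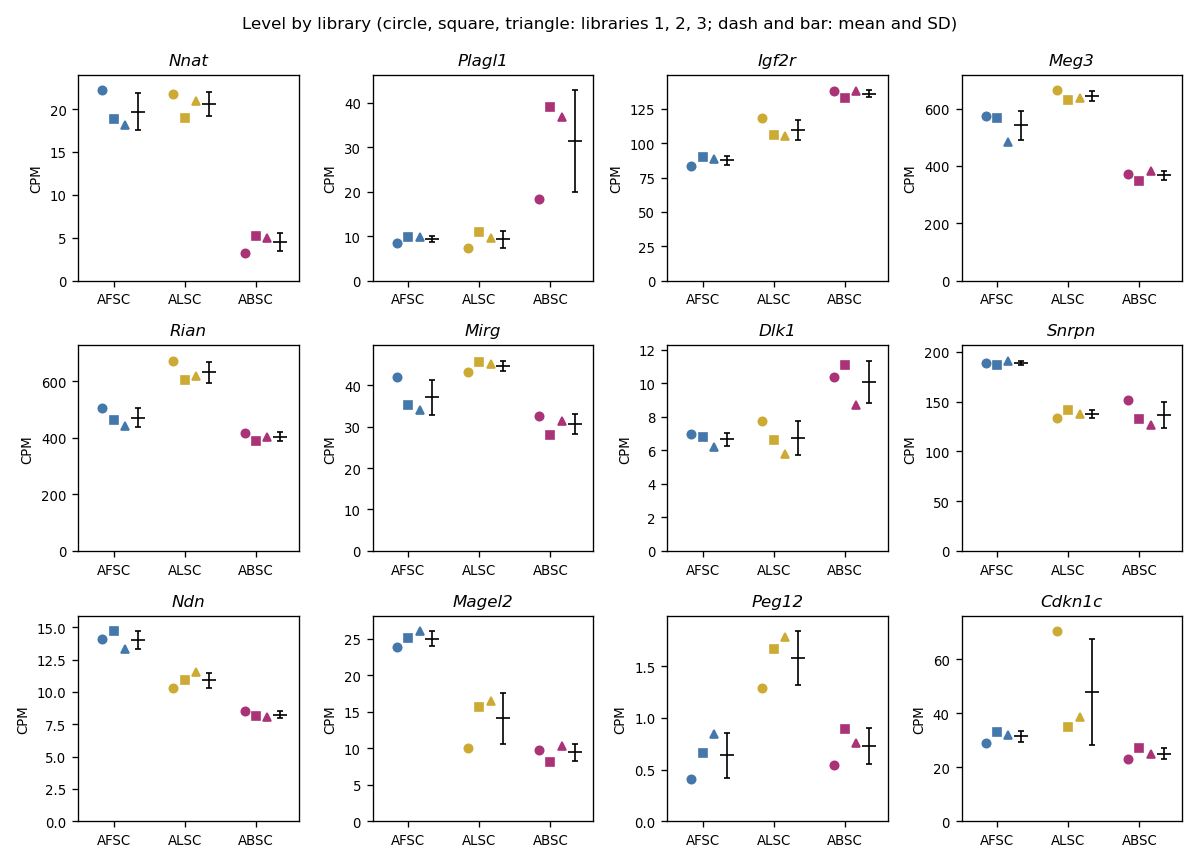
CPM (vertical axis, from 0) in each library of AFSC, ALSC and ABSC for 12 imprinted genes, with the group mean and SD beside the points. Nnat, Meg3, Rian, Mirg, Ndn and Cdkn1c are lowest in ABSC, Plagl1, Igf2r and Dlk1 are highest there, and Snrpn is highest in AFSC.

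The Snrpn-Ndn domain on chromosome 7 corresponds to the human Prader-Willi and Angelman region. Snrpn (chr7:59982495-60140219), which encodes a splicing protein, had 189, 187 and 191 CPM in AFSC 1 to 3, 134, 142 and 138 CPM in ALSC 1 to 3, and 152, 133 and 127 CPM in ABSC 1 to 3. AFSC lay above both derived cell types, which overlapped. Snrpn fell by 0.46 in ABSC (SE 0.07, edgeR adjusted p = 0.00286) and by 0.45 in ALSC (SE 0.07, adjusted p = 0.00500) on the log2 scale, both against the same AFSC libraries. It shares 589 exonic bases on the same strand with Gm38393, and reads of these 2 genes cannot be fully told apart. Gm38393 also fell in ABSC against AFSC (-0.72, edgeR adjusted p = 0.0300). That call held in 4 of 9 fits that each left out 1 library, with an adjusted p of up to 0.130 otherwise. The call was also lost without the filter on low counts, but kept with the replicate block (edgeR adjusted p = 9.14e-07).

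Ndn and Magel2 encode MAGE family proteins. Ndn had 14.1, 14.7 and 13.3 CPM in AFSC 1 to 3, 10.3, 10.9 and 11.5 CPM in ALSC 1 to 3, and 8.55, 8.16 and 8.05 CPM in ABSC 1 to 3. Magel2 (chr7:62377010-62381640) had 23.9, 25.04 and 25.98 CPM in AFSC, 10.02, 15.7 and 16.5 CPM in ALSC, and 9.82, 8.16 and 10.3 CPM in ABSC. Both were highest in AFSC, and the 3 groups did not overlap for Ndn, while ALSC 1 overlapped ABSC for Magel2. Magel2 fell by 1.41 in ABSC (SE 0.18, edgeR adjusted p = 0.00113) and by 0.83 in ALSC (SE 0.18, adjusted p = 0.0208) on the log2 scale. The ALSC call was lost without AFSC 2 or AFSC 3 (adjusted p up to 0.0902). In the blocked fit Magel2 was also lower in ABSC than in ALSC (-0.56, edgeR adjusted p = 0.0110).

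Ndn fell in ABSC against AFSC by 0.77 (SE 0.11, edgeR adjusted p = 0.00233) and against ALSC by 0.40 (SE 0.11, adjusted p = 0.0472). The second call was lost whichever library was left out (adjusted p 0.0521 to 0.156). The blocked fit also put Ndn lower in ALSC than in AFSC (-0.37, edgeR adjusted p = 0.0247).

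Peg12, a Frat family gene of low level, had 0.412, 0.661 and 0.846 CPM in AFSC 1 to 3, 1.29, 1.67 and 1.78 CPM in ALSC 1 to 3, and 0.540, 0.889 and 0.759 CPM in ABSC 1 to 3. All ALSC libraries were above the rest. Peg12 rose in ALSC against AFSC (log2 1.29, SE 0.33, edgeR adjusted p = 0.0442), a call kept in 2 of 9 fits that each left out 1 library (ALSC 1 and ABSC 1), with an adjusted p of up to 0.149 otherwise. With the replicate block it was also lower in ABSC than in ALSC (-1.12, edgeR adjusted p = 0.0124). Mkrn3, a ubiquitin ligase known for its part in puberty timing, had 2.82 to 3.61 CPM in AFSC, 3.29 to 4.41 CPM in ALSC and 2.35 to 3.19 CPM in ABSC. It was called in ABSC against ALSC with the replicate block (-0.55, edgeR adjusted p = 0.0407) and without the libraries numbered 1 (-0.59, 0.0406). Ube3a, the ubiquitin ligase lost in Angelman syndrome and imprinted in neurons, had 101 to 128 CPM and was called in no comparison. Its antisense RNA Snhg14 shares 1803 exonic bases with it and fell in ABSC against AFSC (-0.59, edgeR adjusted p = 0.00830).

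Igf2r, a maternally expressed receptor that clears IGF2, lies at chr17:12682406-12769664. Igf2r had 83.7, 90.1 and 88.8 CPM in AFSC 1 to 3, 118, 106 and 105 CPM in ALSC 1 to 3, and 138, 133 and 138 CPM in ABSC 1 to 3. The 3 groups did not overlap. Igf2r rose in ABSC against AFSC (log2 0.64, SE 0.06, edgeR adjusted p = 0.000238), in ALSC against AFSC (0.33, SE 0.06, adjusted p = 0.0145) and in ABSC against ALSC (0.31, SE 0.06, adjusted p = 0.0115). The ALSC call was lost without AFSC 1, AFSC 2 or AFSC 3 (adjusted p up to 0.0647), and the ABSC call against ALSC was lost with scaling by library size alone. Airn, the paternal antisense RNA that silences Igf2r on its own copy, had 0.283 to 0.564 CPM in AFSC, 0.230 to 0.522 CPM in ALSC and 0.680 to 0.786 CPM in ABSC. All ABSC libraries lay above the others, on 27, 22 and 44 counts summed over AFSC, ALSC and ABSC. Airn was not called in ABSC against AFSC (log2 0.76, edgeR adjusted p = 0.316), against ALSC (1.01, 0.138) or in ALSC against AFSC.

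In the H19-Igf2 domain, H19, a noncoding RNA, had 29.99, 26.6 and 26.03 CPM in AFSC 1 to 3, 67.8, 35.6 and 36.4 CPM in ALSC 1 to 3, and 30.3, 42.3 and 37.8 CPM in ABSC 1 to 3. AFSC lay below the other groups, and ALSC 1 stood far above the other ALSC libraries. H19 was not called in ALSC against AFSC (log2 0.76, SE 0.23, edgeR adjusted p = 0.0844). Without the libraries numbered 1 the difference was 0.45 (adjusted p = 7.36e-05) in ALSC and 0.61 (adjusted p = 5.75e-07) in ABSC against AFSC. Igf2, the fetal growth factor of the same domain, had 0.408 to 1.57 CPM and was not called. Without the libraries numbered 1 it was higher in ABSC than in ALSC (log2 1.55, edgeR adjusted p = 0.00516), at a low level.

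In the Kcnq1 domain, Cdkn1c, a cyclin-dependent kinase inhibitor that restrains growth, lies at chr7:143458339-143461050. Cdkn1c had 29.1, 33.2 and 31.9 CPM in AFSC 1 to 3, 70.4, 34.8 and 38.6 CPM in ALSC 1 to 3, and 22.9, 27.04 and 25.05 CPM in ABSC 1 to 3. The groups did not overlap, and ALSC 1 again stood apart. Cdkn1c fell in ABSC against ALSC by 0.94 on the log2 scale (SE 0.23, edgeR adjusted p = 0.0274). Without ALSC 1 it was at -0.55 (adjusted p = 0.0108). The call was lost with the replicate block (-0.91, edgeR adjusted p = 0.0907) and without ABSC 1, ABSC 2 or ABSC 3 (adjusted p up to 0.0857). Beside H19 and Cdkn1c, the sum of 7 fibroblast markers was 9.88 to 23.9 CPM in ALSC, 17.0 to 18.6 CPM in AFSC and 9.16 to 17.7 CPM in ABSC, and Thy1 was at 13.9 CPM in ALSC 1 against 5.43 and 5.96 CPM in ALSC 2 and 3. Thy1 was also the highest of its group in AFSC 1 (8.24 CPM) and ABSC 1 (7.86 CPM). Col1a1 (6.34 CPM) and Col1a2 (3.31 CPM) also were highest in ALSC 1 among the ALSC libraries, whereas Col3a1, Postn, Lum and Dcn were not. Lum was at 0 in ABSC and Dcn at 0 to 0.206 CPM in all libraries. The part of these markers in the differences was not tested.

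Phlda2, which limits placental growth, had 69.6, 58.8 and 59.4 CPM in AFSC 1 to 3, 59.1, 51.5 and 54.5 CPM in ALSC 1 to 3, and 74.3, 71.5 and 66.7 CPM in ABSC 1 to 3. ABSC lay above ALSC, and AFSC overlapped both. Phlda2 rose in ABSC against ALSC (log2 0.36, SE 0.09, edgeR adjusted p = 0.0254), and the call was lost without ABSC 2, ALSC 2 or ALSC 3 (adjusted p up to 0.0834) and with scaling by library size alone. With the replicate block it was also higher in ABSC (0.18, edgeR adjusted p = 0.0410) and lower in ALSC (-0.18, adjusted p = 0.0379) than in AFSC.

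Cd81, a tetraspanin, had 157, 161 and 163 CPM in AFSC 1 to 3, 159, 132 and 130.0 CPM in ALSC 1 to 3, and 135, 129 and 116 CPM in ABSC 1 to 3. It fell in ABSC against AFSC by 0.34 on the log2 scale (SE 0.09, edgeR adjusted p = 0.0371), and the call held in 3 of 9 fits that each left out 1 library, being lost without ABSC 2, ABSC 3, ALSC 2 or any AFSC library (adjusted p up to 0.150). Scaling by library size alone also lost it. Cd81 was lower in ALSC than in AFSC too with the block (-0.20, edgeR adjusted p = 0.0366). Kcnq1ot1, the paternal noncoding RNA of the domain, had 1, 3 and 5 counts summed over AFSC, ALSC and ABSC and was not tested.

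Ascl2, a transcription factor of the trophoblast, was highest in library 1 of each group. It had 8.97, 3.07 and 3.76 CPM in AFSC 1 to 3, 7.99, 2.04 and 1.94 CPM in ALSC 1 to 3, and 9.82, 2.41 and 1.77 CPM in ABSC 1 to 3. The groups overlapped. The difference of ABSC from AFSC was -0.17 (SE 0.74, edgeR adjusted p = 0.949) and of ALSC from AFSC -0.38 (SE 0.75, adjusted p = 0.826), and both turned positive without AFSC 1 (0.45 and 0.23). Without the 3 libraries numbered 1, Ascl2 was lower than in AFSC in both ABSC (-0.71, edgeR adjusted p = 0.0267) and ALSC (-0.78, 0.0167).

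The library numbered 1 was the highest of its group in all 3 groups for Ascl2, Phlda2, Copg2, Mkrn3, Rian and Grb10, beside 21.5% of all genes. It was the lowest in all 3 for Peg10, Peg12, Ube3a, Plagl1, Impact, H13 and Peg13, beside 20.2% of all genes. With 6 and 7 of 40 members, neither share stood above that background. The labels do not say what the number stands for.

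**Figure D4:**
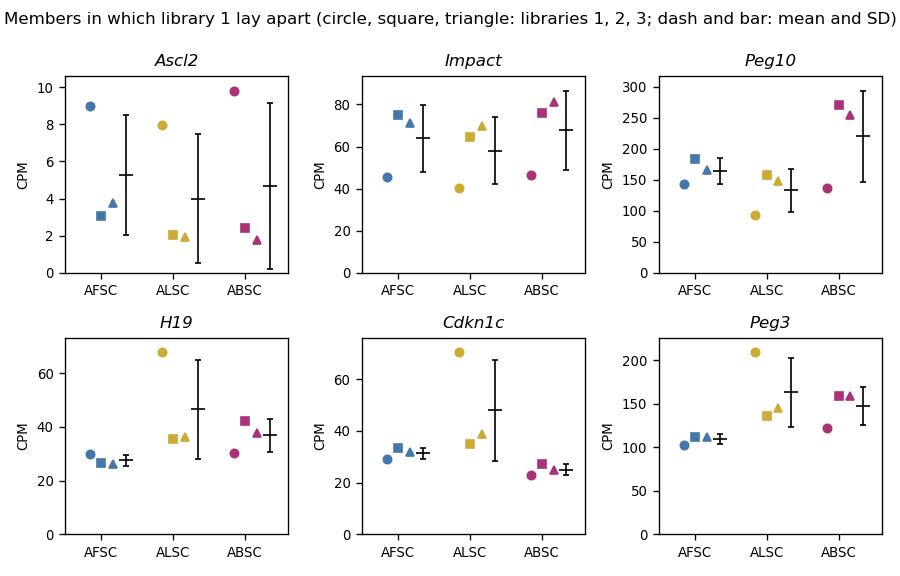
CPM (vertical axis, from 0) in each library for 6 imprinted genes in which a library numbered 1 (circles) lay apart, with the group mean and SD beside the points. Ascl2 is highest and Impact and Peg10 lowest in library 1 of each group, while H19, Cdkn1c and Peg3 are high in ALSC 1 alone.

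Peg10, a retrotransposon-derived gene needed for the placenta, had 143, 183 and 166 CPM in AFSC 1 to 3, 92.6, 157 and 148 CPM in ALSC 1 to 3, and 136, 271 and 254 CPM in ABSC 1 to 3. ABSC 2 and 3 were above every other library and ABSC 1 was not. Peg10 was not called in ABSC against ALSC (log2 0.73, SE 0.26, edgeR adjusted p = 0.110). The call was made in the blocked fit (0.71, adjusted p = 0.00741) and without the libraries numbered 1 (0.79, adjusted p = 1.16e-11). Its neighbour Sgce, a sarcoglycan, had 12.1 to 13.2 CPM in AFSC, 13.3 to 13.97 CPM in ALSC and 14.3 to 18.6 CPM in ABSC, 3 ranges that did not overlap. Sgce was not called in ABSC against AFSC (0.38, edgeR adjusted p = 0.0837), but was with the block (adjusted p = 0.0195) and without the libraries numbered 1 (0.47, 0.00118).

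Peg3, a zinc finger gene that acts on growth and maternal care, had 102, 112 and 112 CPM in AFSC 1 to 3, 209, 136 and 145 CPM in ALSC 1 to 3, and 122, 159 and 159 CPM in ABSC 1 to 3. AFSC lay below both other groups, and ALSC 1 was the highest library. The difference from AFSC was 0.59 in ALSC (SE 0.16, edgeR adjusted p = 0.0553) and 0.43 in ABSC (SE 0.16, adjusted p = 0.146). Without the libraries numbered 1 these were 0.32 (edgeR adjusted p = 1.15e-05) and 0.51 (adjusted p = 4.61e-09). Its neighbours Usp29, at 2.73 to 5.33 CPM, and Zim1, at 1.22 to 2.21 CPM, were not called.

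Impact, a regulator of translation, had 45.6, 74.9 and 71.4 CPM in AFSC 1 to 3, 40.2, 64.3 and 69.8 CPM in ALSC 1 to 3, and 46.3, 75.8 and 81.3 CPM in ABSC 1 to 3. Library 1 was the lowest of each group, with the other libraries overlapping between groups. Impact was called in ABSC against ALSC with the replicate block (0.22, edgeR adjusted p = 0.0111) and without the libraries numbered 1 (0.24, 0.00253).

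In the Mest-Copg2 domain, Mest, a paternally expressed gene with a hydrolase fold, had 52.6 to 68.2 CPM. Mest was called in ABSC against ALSC with the replicate block (-0.21, edgeR adjusted p = 0.0202) and without the libraries numbered 1 (-0.25, 0.00441). Copg2, a coatomer subunit, had 51.8, 42.9 and 43.6 CPM in AFSC 1 to 3, 69.1, 57.3 and 60.3 CPM in ALSC 1 to 3, and 63.5, 54.9 and 52.4 CPM in ABSC 1 to 3, so that AFSC lay below both other groups. Copg2 rose in ALSC against AFSC (log2 0.43, SE 0.11, edgeR adjusted p = 0.0403), and the call was lost without AFSC 2, AFSC 3, ABSC 2, ABSC 3 or any ALSC library (adjusted p up to 0.170). With the replicate block it also was higher in ABSC than in AFSC (0.30, edgeR adjusted p = 0.00170). Mest and Copg2 run toward each other and share 912 exonic bases, and the kit does not mark strand.

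Inpp5f, a phosphoinositide phosphatase with an imprinted variant transcript, had 43.5, 48.2 and 46.6 CPM in AFSC 1 to 3, 37.4, 36.02 and 37.5 CPM in ALSC 1 to 3, and 42.98, 42.4 and 43.5 CPM in ABSC 1 to 3. The ALSC libraries were the lowest 3. Inpp5f fell in ALSC against AFSC by 0.32 on the log2 scale (SE 0.07, edgeR adjusted p = 0.0235), and the call was lost without AFSC 2, AFSC 3, ALSC 2 or ALSC 3 (adjusted p up to 0.116) and with scaling by library size alone. With the replicate block it was higher in ABSC than in ALSC (0.22, edgeR adjusted p = 0.0247).

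The remaining members were not called in any of the 3 comparisons, although some were in other fits. Grb10, an adaptor that restrains insulin and IGF signalling, had 356 to 468 CPM, and was called without the libraries numbered 1 in ABSC (0.14, edgeR adjusted p = 0.0152) and ALSC (0.12, 0.0476) against AFSC. Its neighbour Ddc, a decarboxylase imprinted in heart, had 2.47 to 5.06 CPM. Gnas, which encodes the stimulatory G protein alpha subunit, had 62.5 to 64.1 CPM in AFSC, 54.9 to 59.6 CPM in ALSC and 53.8 to 55.2 CPM in ABSC, and with the block was lower in ABSC than in AFSC (-0.21, edgeR adjusted p = 0.0181). Commd1 had 18.4 to 20.7 CPM in AFSC and 23.8 to 28.1 CPM in ALSC, and with the block was higher in ALSC (0.37, edgeR adjusted p = 0.00997). Zrsr1, a retrogene within Commd1 that shares 412 exonic bases with it, had 10.5 to 13.6 CPM. Trappc9, a subunit of a vesicle tethering complex, had 15.5 to 18.7 CPM in AFSC and 19.5 to 25.9 CPM in ALSC, and with the block was higher in ALSC (0.37, edgeR adjusted p = 0.00712).

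The noncoding Peg13 within Trappc9 had 6.75 to 13.1 CPM. Mcts2, a retrogene within H13 whose reads may be shared with its parent gene, had 17.05 to 22.1 CPM, and H13 itself, a signal peptide peptidase, 43.8 to 60.5 CPM. Nap1l5 (23, 10 and 15 counts summed over AFSC, ALSC and ABSC) and Slc38a4, an amino acid transporter, with 1, 1 and 0 counts, were too low to test. The 0 counts of Slc38a4 in ABSC allow a level of up to 0.0506 CPM (3 counts over the group), which covers counting error only.

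Per kilobase of exon, the mean level over the 9 libraries was highest for Snrpn (71.6 CPM per kb), Phlda2 (56.0), Cd81 (49.5) and Grb10 (43.9). Meg3 and Rian followed at 28.6 and 27.5 CPM per kb. Apart from the 2 lowest, Slc38a4 and Kcnq1ot1, the noncoding Airn and the coding Nap1l5 were lowest, both at 0.143 CPM per kb. Maternally expressed members were called in 2, 2 and 6 of 10 cases in ABSC against AFSC, ALSC against AFSC and ABSC against ALSC, with median log2 differences of 0.06, 0.30 and -0.28. Paternally expressed members were called in 6, 3 and 4 of 20 cases, with medians of 0.10, 0.03 and 0.03. Calls within 1 domain are not separate loci. Meg3, Rian and Mirg of the Dlk1-Meg3 domain are among the 6 maternal calls in ABSC against ALSC. Snrpn, Ndn and Magel2 of the Snrpn-Ndn domain are among the 6 paternal calls in ABSC against AFSC. The medians over all genes were 0.00, 0.00 and -0.01, and 7.98%, 7.04% and 11.0% of all genes were called. With the replicate block the maternally expressed members had 5, 5 and 5 calls and the paternally expressed members 7, 4 and 10, beside 19.4%, 22.2% and 28.5% of all genes. In ABSC against ALSC the maternal and the paternal share were then equal.

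Of 22 genes listed for imprint maintenance, 5 were called in ABSC against AFSC, 4 higher and 1 lower. The list also holds Tet1, Tet2 and Tet3, which act against methylation. In ALSC against AFSC 6 were called, 3 higher and 3 lower, and in ABSC against ALSC 3, with 2 higher and 1 lower. These are 22.7%, 27.3% and 13.6% of the list, beside 7.98%, 7.04% and 11.0% of all genes. With the replicate block the counts were 7, 10 and 10 (19.4%, 22.2% and 28.5% of all genes), and without the libraries numbered 1 they were 11, 11 and 11 (28.5%, 25.4% and 32.2%). Zfp57 itself had 76.4 to 99.7 CPM, its partner Trim28 had 1197 to 1691 CPM and Dnmt1 had 367 to 438 CPM, and none of the 3 was called. In ABSC against ALSC, Trim28 was higher with the block (0.21, edgeR adjusted p = 0.0130) and Zfp57 lower without the libraries numbered 1 (-0.23, 0.00426). Uhrf1, which brings DNMT1 to replicating DNA, rose in ABSC against AFSC (log2 0.35, SE 0.06, edgeR adjusted p = 0.00732). The de novo methyltransferase gene Dnmt3b fell in ABSC against AFSC by 0.33 (SE 0.08, edgeR adjusted p = 0.0269), and Dnmt3a fell in ALSC against AFSC by 0.42 (SE 0.09, adjusted p = 0.0218). The calls of both were lost in some of the 9 fits that each left out 1 library (adjusted p up to 0.123 and 0.101).

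Tet3, which oxidises methylated cytosine, had 27.6, 34.2 and 35.3 CPM in AFSC 1 to 3, 14.4, 20.7 and 19.1 CPM in ALSC 1 to 3, and 53.7, 48.1 and 49.9 CPM in ABSC 1 to 3. The groups did not overlap. Tet3 rose in ABSC against AFSC (log2 0.64, SE 0.14, edgeR adjusted p = 0.0183) and fell in ALSC by 0.84 (SE 0.14, adjusted p = 0.00802). Dppa3 (Stella), which shields maternal methylation after fertilisation, had 0 counts in AFSC, where 3 counts over the group are 0.0485 CPM. It was at 0.459 to 0.940 CPM in ALSC and 1.72 to 2.09 CPM in ABSC, both called higher than AFSC (edgeR adjusted p = 0.00303 and 0.000425). The means of ALSC and ABSC were 15.9-fold and 39.0-fold the 0.0485 CPM. The Polycomb gene Suz12 rose in both cell types against AFSC (0.25 in ABSC, edgeR adjusted p = 0.0149, and 0.27 in ALSC, 0.0144). Smchd1, a chromatin protein that silences imprinted clusters, rose in ALSC against AFSC (0.22, edgeR adjusted p = 0.0400) and Eed, a Polycomb gene, fell there by 0.26 (adjusted p = 0.0433). In ABSC against ALSC, Tet3 (log2 1.49, edgeR adjusted p = 0.000185) and Dppa3 (1.28, 0.0481) rose and Smchd1 fell (-0.34, 0.00370). The calls of Uhrf1, of Dppa3 against AFSC, of Tet3 in both ALSC comparisons and of Smchd1 in ABSC against ALSC held whichever library was left out. The others were lost in some of these fits, at an adjusted p of up to 0.0604 for Tet3, 0.0861 for Suz12, 0.174 for Smchd1, 0.178 for Eed and 0.158 for Dppa3.

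Of 38 further imprinted genes, 22 were tested, and 4, 3 and 3 were called in the 3 comparisons (18.2%, 13.6% and 13.6%, beside 7.98%, 7.04% and 11.0% of all genes). The counts were 7, 7 and 4 with the replicate block (31.8%, 31.8% and 18.2%, beside 19.4%, 22.2% and 28.5% of all genes). In ABSC against ALSC that share was below the one of all genes. Without the libraries numbered 1 the counts were 9, 8 and 9 (40.9%, 36.4% and 40.9%, beside 28.5%, 25.4% and 32.2% of all genes). In ABSC against AFSC 4 were called, with Atp10a higher (log2 0.59, edgeR adjusted p = 0.00422) and Gatm (-1.07, 0.000459), Slc22a3 (-3.78, 0.00190) and Tnfrsf23 (-1.44, 0.0159) lower. Slc22a3, an organic cation transporter beside Igf2r, had 1.75 to 2.03 CPM in AFSC, 0.551 to 1.94 CPM in ALSC and 0.101 to 0.196 CPM in ABSC, where Igf2r was highest. In ALSC against AFSC 3 were called, with Phactr2 (0.88, edgeR adjusted p = 0.0252) and Pon3 (1.42, 0.0299) higher and Calcr lower (-0.94, 0.0226). In ABSC against ALSC 3 were called, all lower, namely Gatm (-0.87, edgeR adjusted p = 0.00133), Pon3 (-1.50, 0.0175) and Slc22a3 (-3.24, 0.00474). The calls of Atp10a, Gatm and Slc22a3 held whichever library was left out. Those of Tnfrsf23, Phactr2, Calcr and Pon3 did not (adjusted p up to 0.0808, 0.0930, 0.101 and 0.130).

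A further list held 10 imprinted genes chosen for extraembryonic tissue or for dependence on the histone mark H3K27me3. Some of them, such as Cdkn1c, Peg10 and Rtl1, are assigned to 1 parental copy without a limit to that tissue. Of the 10, 9 were tested and 1, 2 and 4 were called in the same order of comparisons (11.1%, 22.2% and 44.4%, beside 7.98%, 7.04% and 11.0% of all genes). The counts were 2, 3 and 5 with the replicate block (22.2%, 33.3% and 55.6%, beside 19.4%, 22.2% and 28.5% of all genes). Without the libraries numbered 1 they were 6, 5 and 6 (66.7%, 55.6% and 66.7%, beside 28.5%, 25.4% and 32.2% of all genes). Besides Phlda2 and Cdkn1c, the genes called without the block were Sfmbt2, a Polycomb-related gene needed for trophoblast, and Smoc1, which encodes a secreted calcium-binding protein. Sfmbt2 had 19.3, 25.7 and 26.9 CPM in AFSC 1 to 3, 64.3, 63.96 and 69.3 CPM in ALSC 1 to 3, and 15.1, 29.7 and 28.8 CPM in ABSC 1 to 3. ALSC lay above all other libraries. Sfmbt2 rose in ALSC against AFSC (log2 1.46, SE 0.22, edgeR adjusted p = 0.00525) and fell in ABSC against ALSC by 1.43 (SE 0.22, adjusted p = 0.00319). Smoc1 rose in ALSC (0.77, edgeR adjusted p = 0.0167) and fell in ABSC (-0.93, adjusted p = 0.00625), both against AFSC. The ALSC call was lost without AFSC 1 or AFSC 3 (adjusted p up to 0.0913). Markers of primitive endoderm differed alongside, with a summed level of 8.15 to 12.5 CPM in ALSC, 3.48 to 7.37 CPM in AFSC and 1.62 to 2.46 CPM in ABSC. Of the 6 markers 4 were tested, and all 4 were called lower in ABSC than in ALSC, beside 5.56% of all genes. Leaving out 1 library lost the calls of Gata6, Gata4 and Pdgfra in some fits (edgeR adjusted p up to 0.0588, 0.0919 and 0.124). Sox7, not tested, went the other way, at 0.455 to 0.941 CPM in ABSC and 0.102 to 0.418 CPM in ALSC. Afp had 3 counts in ABSC and 0 in ALSC. The part of the endoderm markers in these differences was not tested.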

How the data were processed

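RNA was measured in 9 libraries, 3 each of AFSC, ALSC and ABSC, grouped by the labels. The deposited values are raw counts per gene. HISAT2 2.0.5 (alignment), featureCounts 1.5.0-p3 (counting) and the build mm9 are named, per the submitters' processing notes, but coordinates in the deposited count table match GENCODE M21 on GRCm38 for 53499 of 54409 shared IDs (98.33%), including 42 of the 43 members, so they are given as GRCm38. Per the labels' protocols the kit was NEBNext Ultra, which does not mark strand, and overlapping genes cannot be told apart. Of 54878 entries, 346 without an Ensembl ID (0.208% to 0.227% of the counts) were left out of library sizes and tests.

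Counts were tested with edgeR 4.0.16 in R 4.3.3 (TMM, filterByExpr with a minimum count of 10 and total of 15, robust quasi-likelihood F test), with all 9 libraries in 1 fit of group means and 3 contrasts. P-values are two-sided and adjusted by Benjamini-Hochberg over 16178 genes, with a threshold of 0.05. The method was tested on simulated data. CPM use TMM-scaled library sizes. Errors on log2 values are standard errors (SE), and 3 counts equal 0.138 to 0.157 CPM in a library.

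The labels do not say what the library numbers stand for. Deviations from group means (log2 of CPM plus 0.5) correlated at 0.249 to 0.615 between same-numbered libraries, above the 0.1 taken as pairing, so values with the number as a block are given for members whose call they change, and counts for the lists. Libraries numbered 2 correlated with those numbered 3 as well, at 0.273 to 0.331, so the pairing rests mainly on number 1.

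Members and lists were chosen with earlier results of these data known. All 43 members were accounted for, ordered by domain. From the 3 gene lists (not the cell type markers), genes called in at least 1 comparison were named, plus Zfp57, Trim28, Dnmt1, Uhrf1 and Dppa3. Alternatives were scaling by library size or by median of ratios, no filter, DESeq2 1.42.0, only the 2 groups compared, the block, leaving out the libraries numbered 1, and leaving out each library in turn.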

Additional observations from a re-analysis of the deposited data

How the results depend on the processing

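The calls for Nnat, Plagl1, Meg3, Igf2r, Ndn, Magel2 and Snrpn in ABSC against AFSC, for Nnat, Plagl1, Meg3, Rian and Mirg in ABSC against ALSC, and for Rian and Snrpn in ALSC against AFSC held in every alternative run, 14 of 27 called differences. Over all 27, 432 alternative values kept the direction, and 87 of them lost the call. Besides the losses given beside each gene, the calls of Dlk1 in both comparisons, of Cdkn1c, Ndn and Blcap in ABSC against ALSC, and of Peg12 and Inpp5f in ALSC against AFSC were lost without the filter on low counts. Fitting only the 2 groups compared lost those of Cdkn1c, Ndn, Blcap and Dlk1 in ABSC against ALSC and of Peg12. The number of members called in ABSC against AFSC, 9, was 15 with the replicate block, 22 without the 3 libraries numbered 1, and 7 to 12 when 1 library was left out. In ALSC against AFSC, 7 became 13 with DESeq2, 15 with the block, 19 without the libraries numbered 1, and 2 to 9 when 1 library was left out, with 2 without AFSC 2 or AFSC 3 and 4 without ALSC 3. In ABSC against ALSC, 11 became 7 with only the 2 groups compared, 17 with the block, 21 without the libraries numbered 1, and 6 to 10 when 1 library was left out, with 6 without ABSC 2 and 7 without ABSC 3 or ALSC 2. An F test over the 3 groups together called 15 of 40 members (37.5%, beside 14.8% of all genes). It called 23 with the block (57.5%, beside 37.0% of all genes) and 28 without the libraries numbered 1 (70.0%, beside 43.9%). When 1 library was left out it called 8 to 17, with 8 without ABSC 2 and 9 without AFSC 2 or AFSC 3. The cause of these shifts was not tested. Of 57 differences called in no setting, 26 changed sign in some setting. Of 36 called only in an alternative, 7 values changed sign, as follows. Ascl2 in ABSC against AFSC turned from -0.17 to 0.15, 0.23 and 0.45 without ABSC 2, ABSC 3 and AFSC 1, and spanned -1.32 to 0.45 when 1 library was left out. In ALSC against AFSC it turned from -0.38 to 0.23 without AFSC 1 and spanned -1.40 to 0.23. Peg3 in ABSC against ALSC turned from -0.15 to 0.19 without the libraries numbered 1 (edgeR adjusted p = 0.00273) and to 0.07 without ALSC 1 (range -0.26 to 0.07), and Grb10 in ALSC against AFSC from 0.05 to -0.01 without AFSC 2 (range -0.01 to 0.14). Members under 1 CPM rest on few counts, and small differences of Igf2, Airn, Nap1l5, Kcnq1ot1 and Slc38a4 were not detectable at this depth.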

Other observations

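In the Kcnq1 domain, Slc22a18 and Osbpl5, outside the members, also were highest in ALSC 1 among the ALSC libraries, as Cdkn1c was. So were the members Phlda2, Ascl2 and Cd81 and, at a low level, Kcnq1 (0.230 CPM). Slc22a18 and Osbpl5 were chosen after their values were seen and were not called without the block. With it, Slc22a18 was higher in ALSC than in AFSC (log2 0.85, edgeR adjusted p = 0.0174). Without the libraries numbered 1, Osbpl5 was lower in ALSC than in AFSC (-0.58, 0.0103). Slc22a18 had 8.59 CPM in ALSC 1 and 4.28 and 3.62 CPM in ALSC 2 and 3, and Osbpl5 had 10.5 CPM in ALSC 1 and 4.96 and 5.15 CPM in ALSC 2 and 3. Unlike Cdkn1c, Osbpl5 was also highest in library 1 of AFSC and ABSC (8.35 and 10.2 CPM), and Slc22a18 in that of ABSC (4.52 CPM). Other genes of the domain went the other way, since Tssc4, Nap1l4, Tnfrsf23 and Tspan32 were lowest in ALSC 1 among the ALSC libraries. Tspan32 was at a low level there (0.0459 CPM). Tssc4 had 36.2 CPM in ALSC 1 and 43.2 and 42.5 CPM in ALSC 2 and 3. Igf2, next to H19, had 1.29 CPM in ALSC 1 and 0.574 and 0.408 CPM in ALSC 2 and 3.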
